A study of Mus musculus with 15 samples.

Results

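The nuclear genes of the mitochondrial respiratory chain and ATP synthase were read from Affymetrix arrays of liver RNA from mice. Members were chosen by gene symbol alone, from the names used for complex I (Nduf), complex II (Sdha to Sdhd), complex III (Uqcr), cytochrome c oxidase or complex IV (Cox4 to Cox8) and ATP synthase or complex V (Atp5). This gave 84 of the 12393 genes measured, on 156 probe sets, with 34 genes of complex I, 5 complex I assembly factors named Ndufaf, 4 genes of complex II, 8 of complex III, 16 of complex IV and 17 of complex V. Of these, 39 had 1 probe set and 45 had several, which were averaged. Probe sets that the annotation pairs with several genes were left out, and Ndufa11, Ndufb4 and Ndufs6 were found only on those. The subunits that mitochondrial DNA encodes carry other names and are not members.

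The respiratory chain passes electrons from NADH (complex I) and succinate (complex II) through complexes III and IV to oxygen and pumps protons out of the mitochondrial matrix, and complex V uses the returning protons to make ATP. Liver is rich in mitochondria and draws on this chain for gluconeogenesis, urea synthesis and fat oxidation. Several small subunits of complex IV exist as a pair of isoforms, with one form usual in liver and the other in heart and skeletal muscle. Factors named NRF1, GABP (of the ETS family), YY1 and the estrogen-related receptors are known to bind promoters of many of these genes.

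The 15 arrays were of wild type, peritumoral and tumor samples, 5 of each, from mice of strain C57B6SJL at an age of 15 months. Wild type samples were healthy liver, and the peritumoral and tumor samples were non-tumor and tumor tissue of mice lacking MAT1A, the enzyme that makes S-adenosylmethionine in adult liver. No treatment was given. No tumor of a wild type mouse and no tumor-free knockout liver were analysed here, so knockout and tumor cannot be told apart in the tumors, nor knockout and a neighboring tumor in the peritumoral samples. The labels do not say how MAT1A was inactivated, nor that equally numbered tumor and peritumoral samples came from the same mouse, and of the wild type samples they say only that they are replicates, so p-values may measure technical spread there.

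Mat1a itself was between 12.25 and 12.72 (log2 intensity) in wild type liver. It was between 8.84 and 9.29 on 4 peritumoral arrays and 11.44 on the library labelled peritumoral 2, and it was between 8.33 and 8.72 on 3 tumor arrays, 10.47 in tumor 2 and 10.50 in tumor 5. Its 1 probe set may lie outside the deleted part. The labels of peritumoral 2, tumor 2 and tumor 5 were kept, and the cause of their higher Mat1a values was not tested. Hepatocyte markers (7 of 8 measured) had summed log2 values of 94.70 to 96.69 in wild type, 95.02 to 96.59 in peritumoral and 89.05 to 95.82 in tumor samples, with tumor 5 the lowest. The arrays that stood apart within their group, by their mean correlation with its other arrays, were wild type 4 (0.963, where the other wild type arrays had 0.981 to 0.984), peritumoral 2 (0.938, others 0.971 to 0.977), and tumors 2 and 5 (0.929 and 0.931, others 0.950 to 0.960). Tumors as a group correlated less, so that every tumor was below wild type 4 in this measure. Granulocyte markers (7 of 7 measured) had their highest sum, 74.88, in wild type 4, where all other arrays had at most 51.84. Differences between the 3′ and 5′ control probe sets, a sign of RNA quality, were 1.86 to 3.45 for Pcx. They were 2.31 to 3.45 in wild type, 2.04 to 2.61 in peritumoral and 1.86 to 2.16 in tumor samples. Tumors and wild type thus did not overlap for Pcx. As a gene, Pcx had a log2 ratio of -0.67 in tumors against peritumoral liver (limma adjusted p = 0.249). Its groups did not overlap there, as for 2.33% of all genes, and the part of its level in the 3′ to 5′ difference was not tested. For Gapdh and Actb, tumors (-0.35 to -0.16 and 0.41 to 0.87) overlapped wild type (-0.23 to 0.25 and 0.54 to 1.11). The arrays that stood apart had Pcx differences of 2.31, 2.30, 1.86 and 2.16, in the order given above. The part of these differences in the results was not tested.

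As a group, the 84 genes stayed near the wild type level in most samples, and in a few their median moved further from it. In each array the log2 ratio of every member to its wild type mean was taken, and the median over the 84 members describes the array. In wild type liver these medians were 0.16, 0.074, -0.0093, -0.25 and 0.058 for replicates 1 to 5. In peritumoral liver they were -0.079, -0.39, 0.15, -0.019 and -0.095, and in tumors -0.013, -0.20, -0.010, -0.12 and 0.61. The median over all genes stayed between -0.10 and 0.022 in every array, so tumor 5 was high and peritumoral 2 and wild type 4 were low for these genes, and the ranges of the 3 groups overlapped. Single members spread around these medians, from -1.60 to 3.23 in tumor 5 and from -1.43 to 0.86 in tumor 2. In tumor 5 the median was 0.19 over the 10 set subunits listed under the processing, with 7 above 0. Over the other 74 members it was 0.67, with 71 above 0. In bulk tissue, fewer cells rich in mitochondria and less of these RNAs in each cell cannot be told apart.

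The same arrays stand out when genes are counted. Tumor 5 was the highest of all 15 arrays for 64 of the 84 members, where it was the highest for 18.4% of all genes. Peritumoral 2 was the lowest of all arrays for 41 of the 84, against 11.7% of all genes, and wild type 4 for 11, against 4.49%. Tumor 2 was the lowest for 12 of the 84, not far from its share of all genes (10.3%). In tumor 5, 78 members lay above the wild type mean, against 47.3% of all genes, and 15 of them by at least 1 on the log2 scale, against 7.45%. In peritumoral 2, 77 members lay below it, against 57.0% of all genes, and 13 of them by at least 1, against 6.33%. In wild type 4, whose own value enters that mean, 80 lay below it, against 62.0% of all genes, and none by as much as 1. Set against the mean of the other 4 wild type arrays, the member median of wild type 4 was -0.32. Counts above or below the mean were not particular to these arrays. In wild type 1, whose own value also enters the mean, 77 members lay above it, against 55.9% of all genes. In peritumoral 3, 70 did, against 41.5%. In each of these 2 arrays 1 member was above by at least 1, against 0.129% and 1.25% of all genes.

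**Figure D1:**
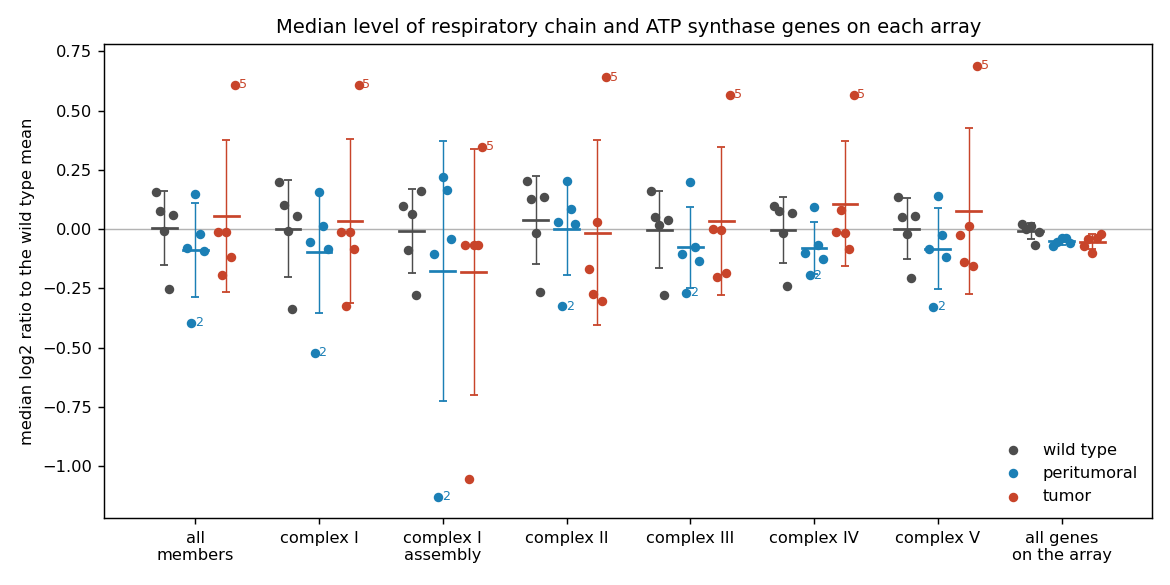
Median log2 ratio to the wild type mean (y axis) of all members, of each complex and of all genes (x axis), with 1 point for each of 5 arrays of a group, a line at the mean of the array medians and bars of 1 SD; tumor 5 and peritumoral 2 carry their numbers. Tumor 5 is the highest array in every complex, at 0.57 to 0.69 in complexes I to V, and the medians of all genes stay near 0.

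Tumors were compared with wild type liver to ask whether these genes differ in tumors. None of the 84 members passed the test (limma, adjusted p under 0.05 over all genes), where 0.565% of all genes passed. At an unadjusted p under 0.05 there were 2 members, Ndufa6 and Cox8c, and at this threshold 17.4% of all genes were counted. No member had all tumors on one side of all wild type arrays, against 5.07% of all genes. The member median was 0.053, with 53 members above 0, and that of all genes was -0.051, with 41.0% above 0. Leaving out 1 array moved the member median to -0.087 without tumor 5 and -0.027 without wild type 4, and to 0.096, 0.080, 0.13 and 0.081 without wild type 1, tumor 1, tumor 2 and tumor 4. Without the 4 arrays that stood apart (a choice made once the data had been seen), the median was -0.12 and 4 members fell (Cox5a, Ndufaf4, Ndufb5 and Ndufv3, with log2 ratios of -0.37, -0.64, -0.32 and -0.40), where 11.5% of all genes passed. Ndufaf4, an assembly factor, and Ndufb5, a subunit of the membrane arm, are named only because they passed there. For 76 of the 84 members the 95% confidence interval of the log2 ratio lay between -1 and 1, as it did for 81.3% of all genes.

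Peritumoral liver was compared with wild type liver to ask the same of knockout tissue beside the tumors. Again 0 members passed in limma, where 0.0403% of all genes did, and 2 members, Cox7a1 and Uqcrq, had an unadjusted p under 0.05, against 15.1% of all genes. No member's groups were free of overlap, against 3.2% of all genes. The median was -0.10, with 17 of 84 members above 0, and that of all genes was -0.055, with 38.9% above 0. It became -0.013 without peritumoral 2, -0.061 without wild type 1, -0.16 without peritumoral 3 and -0.17 without wild type 4. Without the arrays that stood apart it was -0.080 and 1 member fell, the muscle isoform Cox6a2 described below, where 7.73% of all genes passed. The interval lay between -1 and 1 for 81 members and for 89.8% of all genes.

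Tumors were compared with peritumoral liver to set tumor against adjacent knockout tissue, and this comparison shares its arrays with the other two. With 0 members past the test in limma (0.0161% of all genes passed), 4 members, Ndufa6, Ndufa1, Cox6a1 and Cox5b, had an unadjusted p under 0.05, where 9.28% of all genes did, and 1 member, Cox6a2, had groups that did not overlap, where 2.33% of all genes did. The median was 0.17, with 67 of 84 members above 0, and that of all genes was 0.018, with 54.0% above 0. Without tumor 5 it was 0.023, without peritumoral 2 it was 0.054, and without the arrays that stood apart it was -0.062, with 0 members past the test. Between arrays of equal number the median difference over members, tumor minus peritumoral, was -0.00015, 0.26, -0.19, -0.10 and 0.71 for numbers 1 to 5. The sign therefore differed among the numbers, and number 5 had 81 members higher in the tumor while number 3 had 77 lower. The interval lay between -1 and 1 for 72 members and for 81.3% of all genes.

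**Figure D2:**
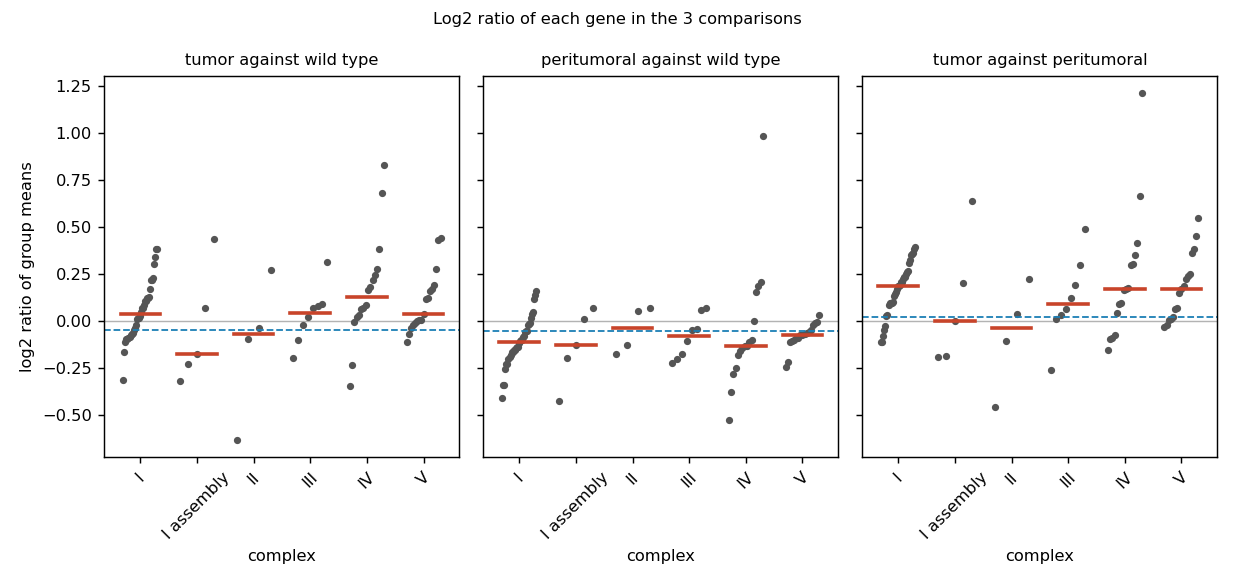
Log2 ratio of the group means (y axis) of each of 84 genes, 1 point per gene, by complex (x axis) in the 3 comparisons; red lines are medians over the genes of a complex and the dashed line is the median of all genes. In tumors against wild type liver complex IV has the highest median, 0.13, and the 5 assembly factors the lowest, -0.18.

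Complex I takes electrons from NADH. Its 34 genes had a median log2 ratio of 0.035 in tumors against wild type, -0.11 in peritumoral against wild type and 0.18 in tumors against peritumoral liver. Ndufa6, an accessory subunit of the LYR family, had the smallest p of all members in tumors against wild type liver. Its values were 10.56, 10.47, 10.48, 10.29 and 10.38 in wild type liver and 10.77, 11.02, 10.89, 10.47 and 10.94 in tumors. The 4 tumors other than tumor 4 lay above every wild type array, and tumor 4 lay within the wild type range. The log2 ratio was 0.38 ± 0.12 (SE, limma adjusted p = 0.146, 95% confidence interval 0.13 to 0.64). In peritumoral liver Ndufa6 was at 10.47, 10.43, 10.84, 10.24 and 10.12, which overlaps both other groups, and tumors against peritumoral liver gave 0.39 ± 0.15 (SE, adjusted p = 0.481).

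Ndufa7, an accessory subunit, had the next smallest p in complex I, with a log2 ratio of 0.38 ± 0.20 (SE, adjusted p = 0.357) in tumors against wild type. It ranged from 10.16 to 10.50 in wild type liver, and in tumors from 10.18 to 10.68 apart from tumor 5 at 11.43. Ndufa1, a small subunit of the membrane arm, was at 11.70, 11.30, 11.80, 11.74 and 11.56 in peritumoral samples and at 11.80, 11.96, 11.69, 12.16 and 12.39 in tumors. Tumor 3 was below peritumoral 1, 3 and 4, tumor 1 was level with peritumoral 3, and the other tumors were above the peritumoral range, with a log2 ratio of 0.38 ± 0.15 (SE, adjusted p = 0.499). Ndufv3 and Ndufa3, accessory subunits of the NADH-binding module and of the membrane arm, had the smallest p of complex I in peritumoral against wild type, at -0.41 ± 0.20 (SE, adjusted p = 0.361) and -0.34 ± 0.17 (SE, adjusted p = 0.373). Peritumoral 2 was the lowest array for both, with Ndufv3 at 10.70 where the other peritumoral arrays had 11.44 to 11.97 and the wild type arrays 11.51 to 11.99.

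Among the core subunits of complex I, Ndufv1, which binds NADH, had log2 ratios of -0.068 (95% confidence interval -0.41 to 0.27) in tumors and 0.015 (-0.23 to 0.26) in peritumoral liver against wild type. Ndufs1, the largest iron-sulfur subunit, had 0.014 (-0.35 to 0.38) in tumors and -0.17 (-0.74 to 0.41) in peritumoral liver. Peritumoral 2 held Ndufs1 at 8.13, where the other peritumoral arrays had 9.28 to 9.64. Tumor 5, high for most members, had Ndufs1 at 8.98, below the other 4 tumors (9.08 to 9.57). Ndufa4 is counted here with complex I by its name but is now known as a subunit of complex IV. Its log2 ratios were 0.067 in tumors against wild type and -0.024 in peritumoral against wild type, and tumor 5 at 12.48 was above all other arrays (11.41 to 11.99).

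The complex I assembly factors help build the complex and are not part of it. Their median over the 5 genes was -1.13 in peritumoral 2 and -1.05 in tumor 2, where the other arrays lay between -0.28 and 0.35. Ndufaf1, picked like Ndufaf4 once the values were known, was at 6.41 in peritumoral 2 and 7.46 in tumor 2, and between 8.19 and 8.77 on the other 13 arrays. Ndufaf4 went the other way in peritumoral 2, at 8.33, its highest value of all arrays, and was at 7.74 in tumor 2, within the wild type range of 7.28 to 7.90. Ndufaf5, a methyltransferase-like factor, was at 5.68, 5.34, 5.68, 5.51 and 5.88 in wild type liver and at 5.47, 4.35, 5.90, 5.78 and 5.58 in peritumoral liver. In tumors it was at 5.68, 4.43, 6.22, 6.09 and 7.83, so that 3 arrays, peritumoral 2 and tumor 2 below and tumor 5 above, account for its range. Its log2 ratio in tumors against wild type was 0.44 ± 0.49 (SE, adjusted p = 0.663).

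Complex II is succinate dehydrogenase, an enzyme of both the chain and the TCA cycle, and its subunits did not move alike. Sdha, the flavoprotein that oxidizes succinate, was at 11.38, 11.37, 11.28, 10.71 and 11.38 in wild type liver. It was at 11.25, 10.00, 11.38, 11.33 and 11.28 in peritumoral liver and at 11.30, 9.80, 11.19, 11.04 and 9.63 in tumors. Peritumoral 2, tumor 2 and tumor 5 were below every other array, and the remaining values of the 3 groups overlapped. These are also the knockout arrays with the highest Mat1a values, as given above. Both probe sets of Sdha were low in the 3 arrays, with log2 ratios to the wild type mean of -0.65, -1.19 and -1.46 on one and -1.79, -1.67 and -1.74 on the other. The log2 ratio of the groups was -0.63 ± 0.34 (SE, adjusted p = 0.364) in tumors against wild type, and in peritumoral against wild type it was -0.18 ± 0.26 (SE, adjusted p = 0.744) and turned to 0.086 without peritumoral 2.

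The other subunits of complex II were high in tumor 5, where Sdha had its lowest value. Sdhd, a membrane anchor, was at 8.93, 8.86, 8.77, 8.68 and 8.49 in wild type liver and 8.35, 8.53, 8.41, 8.09 and 9.88 in tumors. Tumors 1, 3 and 4 lay below all wild type arrays and tumor 5 above them, and the log2 ratio was -0.096 ± 0.29 (SE, adjusted p = 0.886). Sdhb, the iron-sulfur subunit, was at 12.33 in tumor 5 and between 11.36 and 12.03 in the other tumors, and peritumoral 3 was as high at 12.35. Sdhc, the other anchor, was at 9.92 in tumor 5 against 8.67 to 9.66 on all other arrays, with a log2 ratio of 0.27 ± 0.19 (SE, adjusted p = 0.469) in tumors against wild type.

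The 250 bases before the start site of Sdha and Sdhd are shown because the genes are subunits of the same complex and parted in tumor 5. They are from RefSeq promoter windows of mouse build GRCm38.p6, each of 300 bases with 50 after the start, which were matched by gene identifier for 70 of the 84 members. The windows were searched on both strands for the letters GCGCA, any base, GCGC (NRF1), CCGGAAG (ETS), AAGATGGC (YY1) and TCAAGGTCA (estrogen-related receptors), and capitals mark a match. Sdha lies on the minus strand with the stretch at chr13:74350241-74350490, and Sdhd on the minus strand with the stretch at chr9:50603850-50604099. Each is written 5′ to 3′ and ends at the base before the start.
Sdha: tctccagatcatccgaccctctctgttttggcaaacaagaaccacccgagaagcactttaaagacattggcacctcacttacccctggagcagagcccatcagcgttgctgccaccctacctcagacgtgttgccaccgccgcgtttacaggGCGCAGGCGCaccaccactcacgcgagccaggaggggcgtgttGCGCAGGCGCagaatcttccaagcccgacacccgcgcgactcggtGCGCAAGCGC
Sdhd: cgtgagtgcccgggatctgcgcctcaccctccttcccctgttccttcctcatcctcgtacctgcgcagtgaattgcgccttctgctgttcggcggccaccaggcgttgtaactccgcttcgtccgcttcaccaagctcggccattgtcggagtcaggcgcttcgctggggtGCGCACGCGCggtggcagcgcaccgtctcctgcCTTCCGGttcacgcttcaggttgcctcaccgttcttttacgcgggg
The stretch of Sdha holds the NRF1 letters at 3 places, beginning 98, 55 and 10 bases before the start. That of Sdhd holds them 79 bases before the start and the ETS letters 46 bases before it, and no match overlapped another. The estrogen-related receptor letters of Sdhd are not wholly inside the printed stretch.

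Over the members with a window, 16 of 70 (22.9%) held the NRF1 letters, against 9.36% of the 9883 genes of the array with a window and 5.19% of all 27025 genes with one. The ETS letters were in 18 members (25.7%, against 16.4% and 9.93%), the YY1 letters in 9 (12.9%, against 4.39% and 3.19%) and the estrogen-related receptor letters in 2, Sdhd and Atp5g3 (2.86%, against 0.344% and 0.466%). Complex V held the NRF1 letters in 6 of 15 genes and complex I in 4 of 31. These are matches of letters and not measured binding. In tumor 5 the median log2 ratio was 0.58 over the 16 members with the NRF1 letters and 0.61 over the 54 without, and in peritumoral 2 it was -0.36 and -0.49.

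Complex III hands electrons to cytochrome c. Its 8 genes had medians of 0.043, -0.079 and 0.091 in tumors against wild type, peritumoral against wild type and tumors against peritumoral liver. Uqcr10, a small subunit, was at 7.20, 7.03, 7.13, 6.58 and 6.99 in wild type liver and 6.98, 7.07, 6.92, 7.22 and 8.31 in tumors. Tumors 1 to 3 lay within the wild type range, tumor 4 just above it and tumor 5 far above it, and the log2 ratio was 0.31 ± 0.26 (SE, adjusted p = 0.544). Uqcrc1, a core protein, had -0.20 ± 0.18 (SE, adjusted p = 0.593) in tumors against wild type, and Uqcrfs1, the Rieske iron-sulfur protein, had 0.017 (95% confidence interval -0.30 to 0.34). Uqcrq, another small subunit, was at 6.27, 6.21, 6.56, 6.42 and 6.34 in peritumoral liver and 6.73, 6.54, 6.66, 6.38 and 6.61 in wild type liver. The groups overlapped, since peritumoral 3 and 4 lay above wild type 4, with a log2 ratio of -0.22 ± 0.094 (SE, adjusted p = 0.306).

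**Figure D3:**
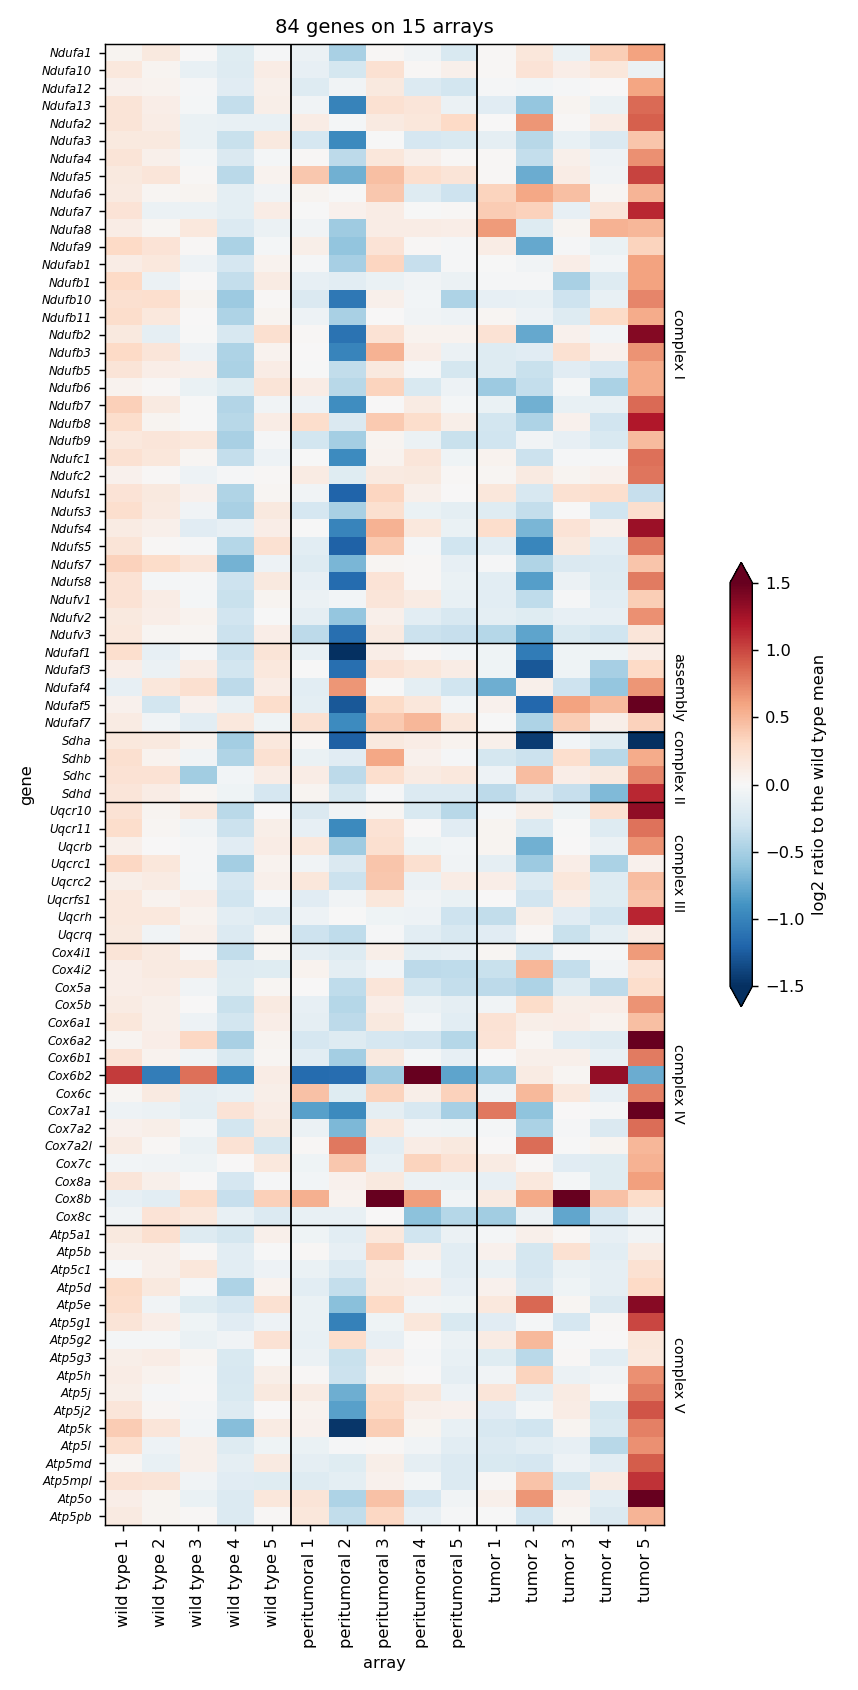
Log2 ratio to the wild type mean (color, with values beyond 1.5 shown as 1.5) of 84 genes (rows, by complex) on 15 arrays (columns, by group). The column of tumor 5 is high for 78 genes with Sdha lowest at -1.60, and that of peritumoral 2 is low for 77.

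Complex IV reduces oxygen to water. Its 16 genes had the highest median of the complexes in tumors against wild type liver, 0.13 with 13 above 0, and medians of -0.14 and 0.17 in the other comparisons. By array, the complex IV median was -0.013, 0.081, -0.014, -0.082 and 0.57 in tumors 1 to 5. Its catalytic subunits are encoded by mitochondrial DNA and are not members. Cox4i1, the usual form of the largest nuclear subunit, had a log2 ratio of 0.070 (95% confidence interval -0.31 to 0.45) in tumors and -0.10 (-0.35 to 0.15) in peritumoral liver. Cox5a had -0.24 ± 0.14 (SE, adjusted p = 0.413) in tumors. Its values were 11.43, 11.36, 11.63, 11.43 and 12.09 in tumors and 11.92, 11.94, 11.77, 11.64 and 11.85 in wild type liver. The 4 tumors other than tumor 5 lay below every wild type array and tumor 5 above all of them. Cox5a fell with array weights (-0.39, adjusted p = 0.020) and without the 4 arrays that stood apart (-0.37, adjusted p = 0.044).

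Cox5b, a subunit that binds zinc, and Cox6a1, the usual liver form of subunit 6a, had unadjusted p-values under 0.05 in tumors against peritumoral liver. Cox6a1 was at 12.74, 12.61, 12.62, 12.58 and 12.97 in tumors and 12.39, 12.13, 12.67, 12.48 and 12.37 in peritumoral liver. Peritumoral 3 lay among the tumors and the other 4 lay below them, with a log2 ratio of 0.29 ± 0.12 (SE, adjusted p = 0.505). Cox5b had 0.35 ± 0.15 (SE, adjusted p = 0.518), with tumors from 9.49 to 10.22 and peritumoral liver from 9.12 to 9.64.

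The muscle forms of subunits 6a and 7a were highest in tumor 5. Cox7a1, the heart and skeletal muscle form of subunit 7a, was at 4.41, 4.40, 4.34, 4.69 and 4.59 in wild type liver and 3.67, 3.53, 4.36, 4.24 and 3.99 in peritumoral liver. In tumors it was at 5.28, 3.89, 4.49, 4.47 and 7.72. Peritumoral samples were below wild type except for an overlap of peritumoral 3 (4.36) with wild type 3 (4.34), and tumor 5 was far above the next array, tumor 1. Cox7a1 had the smallest p of all members in peritumoral against wild type liver, with a log2 ratio of -0.53 ± 0.16 (SE, limma adjusted p = 0.218), and had 0.68 ± 0.60 (SE, adjusted p = 0.575) in tumors against wild type. Array minima were between 2.61 and 2.78, so that Cox7a1 lay low on the scale in all arrays but tumor 5.

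Cox6a2, the muscle form of subunit 6a, was at 6.67, 6.72, 6.93, 6.13 and 6.67 in wild type liver, 6.37, 6.43, 6.37, 6.34 and 6.19 in peritumoral liver and 6.83, 6.65, 6.47, 6.44 and 8.66 in tumors. All 5 tumors lay above all 5 peritumoral arrays, with tumor 4 (6.44) and peritumoral 2 (6.43) nearly level, and wild type 4 alone lay below the peritumoral range. The log2 ratio in tumors against peritumoral liver was 0.67 ± 0.38 (SE, adjusted p = 0.654). In peritumoral against wild type liver it was -0.28 ± 0.13 (SE, adjusted p = 0.347), and without wild type 4 it was -0.41 and passed with an adjusted p of 0.047. The partner of Cox7a1 in liver, Cox7a2, was also highest in tumor 5, at 12.97 against 11.46 to 12.29 on all other arrays.

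Markers of heart and skeletal muscle (10 of 10 listed were measured) had summed log2 values of 38.97 to 47.57 in wild type, 38.15 to 44.29 in peritumoral and 38.23 to 41.12 in tumor samples. The highest sum was in wild type 5, where Acta1, skeletal muscle actin, was at 7.32, Myh1, a myosin of fast fibers, at 5.32, Ckm, the muscle creatine kinase, at 6.07, Tnnt3, a troponin, at 4.90 and Mb, myoglobin, at 5.71, each the highest of all arrays, and where Cox7a1 was at 4.59 and Cox6a2 at 6.67. In tumor 5 the same genes were at 4.89, 3.23, 5.06, 4.01 and 4.81. The heart actin Actc1 and the myosins Myh2 and Myh6 had their highest values of all arrays in tumor 5, at 4.61, 3.71 and 3.43, where the other arrays ranged from 3.91 to 4.48, from 3.10 to 3.65 and from 3.12 to 3.42. The remaining markers, Myh7 and Tnnt2, were highest in peritumoral 2, at 4.09 and 5.93, and were at 3.96 and 3.40 in tumor 5. The part of muscle RNA in the values of Cox7a1 and Cox6a2 was not tested.

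Cox8b, the form of subunit 8 in heart, skeletal muscle and brown fat, followed another pattern. It was at 4.54, 4.51, 4.93, 4.31 and 5.02 in wild type liver, 5.20, 4.71, 8.43, 5.29 and 4.60 in peritumoral liver and 4.80, 5.23, 7.40, 5.10 and 4.93 in tumors. The arrays of replicate 3 in both knockout groups were far above all other arrays, and tumor 5 was within the range of the rest. The log2 ratio was 0.83 ± 0.45 (SE, adjusted p = 0.361) in tumors and 0.99 ± 0.64 (SE, adjusted p = 0.458) in peritumoral liver against wild type. Its partner Cox8a, the form found in most tissues, was at 8.55 in peritumoral 3 and 8.37 in tumor 3, within the range of the other arrays (8.15 to 9.01).

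Of the adipocyte markers (4 of 6 listed were measured), Cidea was also highest in these samples and the others were not. The summed log2 values were 14.49 to 18.54 in wild type, 14.07 to 21.33 in peritumoral and 14.40 to 20.68 in tumor samples. Cidea, a lipid droplet protein abundant in brown fat, was at 10.82 in peritumoral 3 and 11.06 in tumor 3. On the other arrays it was between 4.09 and 7.80. Ucp1, the uncoupling protein that defines brown fat, was at 3.77 and 3.32, Adipoq at 3.43 and 3.23 and Lep at 3.31 and 3.08 in the same pair of arrays, all within the range of the other arrays or, for Adipoq and Lep in tumor 3, below it. Tumor 3 also had the highest mean log2 ratio to wild type of the stellate and fibroblast markers (8 of 8 measured) and cholangiocyte markers (4 of 5), at 1.63 and 1.66, where peritumoral 3 had 0.33 and -0.18. The part of these cell types in the Cox8b values was not tested.

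The same stretches before the start sites of Cox7a1 and Cox8b are shown because these genes had the largest ranges over the arrays and are isoforms of muscle. Cox7a1 lies on the plus strand with the stretch at chr7:30183921-30184170, and Cox8b on the minus strand with the stretch at chr7:140900447-140900696. Neither held any of the 4 searched sets of letters, so no base is in capitals, and the absence says nothing of the factors.
Cox7a1: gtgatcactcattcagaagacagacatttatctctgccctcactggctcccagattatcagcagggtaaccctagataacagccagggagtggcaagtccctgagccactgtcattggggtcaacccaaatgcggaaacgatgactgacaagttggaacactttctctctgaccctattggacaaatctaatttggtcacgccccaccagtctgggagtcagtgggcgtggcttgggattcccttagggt
Cox8b: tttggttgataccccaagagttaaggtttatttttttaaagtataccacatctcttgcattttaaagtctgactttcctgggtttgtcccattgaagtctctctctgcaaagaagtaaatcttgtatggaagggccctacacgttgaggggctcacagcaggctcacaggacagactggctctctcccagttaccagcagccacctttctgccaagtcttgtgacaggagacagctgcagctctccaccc

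The remaining isoforms of complex IV showed no difference between groups that passed. Cox4i2, the form induced by low oxygen, stayed between 4.01 and 4.90 on all arrays, with log2 ratios of -0.0092 (95% confidence interval -0.39 to 0.38) in tumors and -0.18 (-0.44 to 0.078) in peritumoral liver against wild type. Cox6b2, a form of testis, was scattered in every group, from 4.37 to 6.46 in wild type, 4.25 to 7.12 in peritumoral and 4.67 to 6.74 in tumor samples. Its usual partner Cox6b1 lay between 11.67 and 12.38 on all arrays but tumor 5 (12.96). Cox8c, also a form of testis, had -0.35 ± 0.15 (SE, adjusted p = 0.278) in tumors against wild type, with tumors at 6.38, 6.82, 6.13, 6.65 and 6.82 and wild type liver at 6.86, 7.11, 7.06, 6.80 and 6.71, and the groups overlapped.

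**Figure D4:**
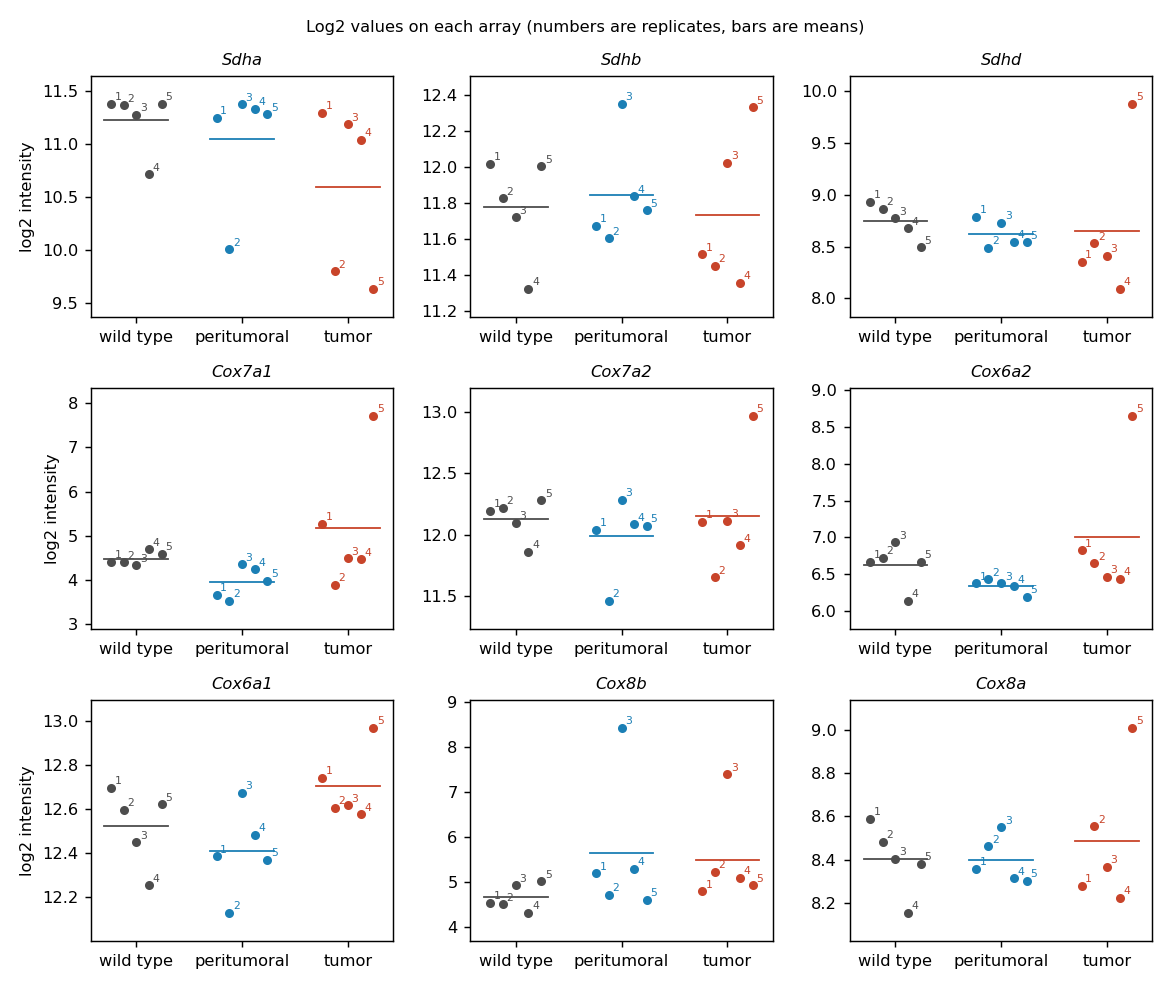
Log2 intensity (y axis) of 9 genes on each array by group (x axis), with the replicate number beside each point and a bar at the group mean. Sdha is low in peritumoral 2, tumor 2 and tumor 5 (10.00, 9.80 and 9.63), Cox7a1 and Cox6a2 are high in tumor 5 (7.72 and 8.66), and Cox8b is high in peritumoral 3 and tumor 3 (8.43 and 7.40).

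Complex V makes ATP from ADP. Its 17 genes had medians of 0.037 in tumors against wild type, -0.076 in peritumoral against wild type, with 1 of 17 above 0, and 0.17 in tumors against peritumoral liver, with 15 of 17 above 0. The catalytic subunits differed little. Atp5b, the beta subunit, was at 12.84, 12.84, 12.78, 12.60 and 12.76 in wild type, 12.78, 12.64, 13.11, 12.84 and 12.60 in peritumoral and 12.82, 12.51, 12.99, 12.60 and 12.89 in tumor samples. The 3 groups overlapped throughout, and the 95% confidence intervals of its log2 ratios were -0.25 to 0.24 in tumors and -0.20 to 0.26 in peritumoral liver against wild type. Atp5a1, the alpha subunit, had intervals of -0.27 to 0.23 and -0.36 to 0.18.

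Some small subunits of complex V spread further, among them those named here. Atp5e, the epsilon subunit, was at 11.27, 10.96, 10.83, 10.75 and 11.24 in wild type liver and 11.17, 11.87, 11.04, 10.79 and 12.38 in tumors. Tumor 2 and tumor 5 were above all wild type arrays and the other tumors within their range, with a log2 ratio of 0.44 ± 0.28 (SE, adjusted p = 0.439). Atp5o, which links the catalytic head to the outer stalk, showed the same order, with tumors at 10.27, 10.86, 10.26, 10.04 and 11.69 against 9.99 to 10.37 in wild type liver, and a log2 ratio of 0.43 ± 0.28 (SE, adjusted p = 0.445). Without the 4 arrays that stood apart, the log2 ratios were -0.073 for Atp5e and -0.059 for Atp5o. Atp5g1, which encodes the membrane ring subunit c, was lowest in peritumoral 2 at 10.21 and highest in tumor 5 at 12.23, with all other arrays between 10.97 and 11.42. Atp5md and Atp5mpl, small proteins of the membrane part, were highest in tumor 5 as well, at 11.50 and 12.09.

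Of the other genes of the pathway, 1 passed the test, in tumors against wild type, where 0.565% of all genes passed. It was among the 17 genes of the TCA cycle, and the sizes of the other lists are given below. Mdh2, the malate dehydrogenase of the TCA cycle, rose in tumors against wild type liver, from 11.07 ± 0.12 to 11.60 ± 0.14 (SD, n = 5 each), with no overlap between the groups and a log2 ratio of 0.53 ± 0.098 (SE, limma adjusted p = 0.049). The call was lost with the replicate number as a block (adjusted p = 0.159), and without any 1 of wild type 1, 2, 3 and 5 and tumors 1, 2, 4 and 5 the adjusted p was from 0.052 to 0.149. No other of the 17 genes of the TCA cycle passed in any of the 3 comparisons in limma. At an unadjusted p under 0.05 there were 5 in tumors against wild type (17.4% of all genes), Mdh2 included. There were 6 in peritumoral against wild type (15.1% of all genes) and 2 in tumors against peritumoral liver (9.28%). Groups did not overlap for 3 of the 17 genes in each comparison with wild type, against 5.07% and 3.2% of all genes. In peritumoral against wild type liver the pyruvate dehydrogenase genes Pdhb and Pdha1 had log2 ratios of -0.60 and 0.40 (adjusted p = 0.131 and 0.151), each without overlap between the groups.

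The other lists had no gene past the test in any comparison in limma. At an unadjusted p under 0.05 in tumors against wild type there were 7 of 28 further assembly factors, 2 of 16 genes of electron carriers, 4 of 14 mitochondrial carriers and uncoupling proteins, 2 of 21 regulators of mitochondrial biogenesis, 7 of 74 genes of the mitochondrial ribosome and 4 of 17 antioxidant and quality control genes, where 17.4% of all genes were counted. In peritumoral against wild type the counts were 1, 0, 1, 3, 8 and 4 (15.1% of all genes), and in tumors against peritumoral liver 3, 0, 0, 0, 3 and 1 (9.28%). Of those counted in tumors against wild type, 4 further assembly factors were higher and 3 lower, and 6 ribosome genes were higher and 1 lower. Slc25a5, an ADP/ATP carrier of the inner membrane, had a log2 ratio of 0.50 ± 0.11 (SE, adjusted p = 0.069) in tumors against wild type. Its groups did not overlap, as for 5.07% of all genes. Nnt, the transhydrogenase that makes NADPH in mitochondria, had -0.78 ± 0.17 (SE, adjusted p = 0.069) without overlap, and Polrmt, the mitochondrial RNA polymerase, -0.56 ± 0.14 (SE, adjusted p = 0.099). Cox18 and Lrpprc, needed for complex IV, had -0.73 and -0.72 (adjusted p = 0.101 and 0.140) in the same comparison.

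The lists did not all follow the members in tumor 5. The mitochondrial ribosome, which makes the subunits that mitochondrial DNA encodes, had a median of 0.78 there, and the further assembly factors had 0.52. Electron carriers were at 0.27. The TCA cycle was at -0.054, mitochondrial carriers at -0.032, regulators of mitochondrial biogenesis at -0.12 and antioxidant and quality control genes at -0.11. In peritumoral 2 the ribosome was at -0.45, the further assembly factors at -0.59 and the electron carriers at -0.58, and the regulators were at 0.32. The antioxidant and quality control genes were at -0.33 there, the TCA cycle at -0.072 and the mitochondrial carriers at -0.087, with all genes at -0.054.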

How the data were processed

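Liver RNA (RNeasy kit) of 15 samples was hybridized to Affymetrix mouse arrays of 22690 probe sets, 1 array per sample. The deposited values are log2 intensities, scanned by the authors with GCOS 1.4 and background-corrected, quantile-normalized and summarized with RMA, so that only relative levels remain and array medians lie between 5.47 and 5.68. The RMA version and genome build are not given in the sources used here. The authors' log2 ratios of each knockout array to the wild type array of the same number were not used.

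Probe sets with 1 symbol (20380 used, 691 with several left out and 1606 not in the annotation) were averaged to 12393 genes. Each pair of groups was fitted on its own 10 arrays with limma 3.58.1 in R 4.3.3 (lmFit, eBayes), with Benjamini-Hochberg adjustment over all genes and a threshold of 0.05, after testing on simulated data. In the text, ± SE and the 95% intervals come from that fit, and rose and fell are used only past the threshold. Precision is limited by the number of arrays.

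The members and lists were chosen with earlier results of these data known. Genes named are Mat1a, in each comparison and complex all members that passed (where over 4, the 2 largest rises and falls) or else the 2 with the smallest p, 10 set subunits (Ndufs1, Ndufv1, Sdha, Sdhb, Uqcrc1, Uqcrfs1, Cox4i1, Cox5a, Atp5a1 and Atp5b) and tissue isoforms with their partners, the 3 members with the largest range, and in each other list up to 2 rises and 2 falls that passed or else the 2 smallest p. Of the genes so taken from the other lists, those of tumors against wild type are all given. From the other comparisons only Pdhb, Pdha1 and Pcx are given.

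Equally numbered tumor and peritumoral arrays deviated together from their group means, with correlations over genes of 0.353, 0.673, 0.271, 0.308 and 0.117. Tumor 4 correlated better with a peritumoral array of another number. With wild type arrays of the same number the correlations were between -0.223 and 0.207, a range that holds the 0.117 of number 5. Pairing by number is therefore uncertain, above all for numbers 4 and 5, and the labels do not give it. The main fit was not paired, and the replicate block was fitted as an alternative. Alternatives were the highest probe set, no cross-hybridizing probe sets, all groups in one fit, the replicate block, other scalings, a filter on low genes, a trended prior, array weights, tests per probe set and leaving out arrays.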

Additional observations from a re-analysis of the deposited data

Results flagged for a closer look

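An array far from the other 4 of its group was found in 27 of the 135 groups of 5 examined (20% of them), where chance gives about 1 in 20, and members measured on the same array are not independent. Of these, 10 were high values of tumor 5. They were Atp5g1 at 12.23, Atp5md at 11.50, Cox6a2 at 8.66, Cox6b1 at 12.96, Sdhd at 9.88 and Uqcr10 at 8.31 (log2 intensity), and the medians of all members at 0.61, complex III at 0.57, complex IV at 0.57 and complex V at 0.69 (log2 ratio to wild type).

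Peritumoral 2 had 7 low values, which were Ndufa3 at 10.96, Ndufa4 at 11.41, Ndufaf5 at 4.35, Ndufs1 at 8.13, Sdha at 10.00, Sdhc at 8.80 and the median of the complex I assembly factors at -1.13, and 1 high value, Mat1a at 11.44. Wild type 4 had 4 low values, Cox5b at 9.21, Ndufs1 at 8.88, Ndufv3 at 11.51 and Sdha at 10.71. Ndufs1 and Sdha were thus low in both of these arrays.

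Peritumoral 3 was high for Atp5md at 10.68, Cox4i1 at 12.50 and Cox8b at 8.43, tumor 3 was high for Cox8b at 7.40, and peritumoral 4 was high for Cox6b2 at 7.12. No explanation was tested for any of these values.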

How the results depend on the processing

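With array weights, 5 members passed in tumors against wild type (Cox5a, Ndufaf4, Ndufb6 and Ndufv3 lower and Ndufa8 higher, where 14.8% of all genes passed; Ndufa8 and Ndufb6 are named only because they passed) and 2 in peritumoral against wild type (Cox6a2 and Cox7a1 lower, 8.73% of all genes). Without the 4 arrays that stood apart (wild type 4, peritumoral 2, tumor 2 and tumor 5) the counts were 4 and 1 (11.5% and 7.73% of all genes). Without the first 3 of these they were 0 and 1 (4.59% and 7.73% of all genes). Leaving out 1 array gave 0 members, except for 1 in peritumoral against wild type without wild type 4, where 2.15% of all genes passed. The member medians then ranged from -0.087 to 0.13 in tumors against wild type and from -0.17 to -0.013 in peritumoral against wild type. In tumors against peritumoral liver they ranged from 0.023 to 0.21. With array weights these medians were -0.10, -0.096 and -0.011. The replicate block gave 0 members in each comparison and changed no call but that of Mdh2 (adjusted p = 0.159). Of the log2 ratios of named genes, 8 changed sign. With array weights Atp5e became -0.0045 in tumors against wild type and Sdhc -0.0021 in tumors against peritumoral liver. Without the 4 arrays, Atp5e, Atp5o and Uqcr10 became -0.073, -0.059 and -0.053 in tumors against wild type, and Atp5e and Sdhc -0.032 and -0.10 in tumors against peritumoral liver. Sdha in peritumoral against wild type ranged from -0.30 to 0.086 when 1 array was left out. Of 679 repeats of 31 results for named genes, 654 kept their direction and side of the threshold, 5 passed it anew and 12, all of Mdh2, lost it. The cause was not tested. RMA values compress low signals, so ratios of genes near the array minima (2.61 to 2.78) are less certain.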
